A study of Mus musculus with 3 samples.

Results

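The genes described here are 10 smooth muscle contractile genes, Acta2, Tagln, Myh11, Cnn1, Mylk, Actg2, Synpo2, Tpm1, Tpm2 and Cnn2, out of 27886 genes listed in at least 1 of 3 single-cell count tables. They were named as a list of known genes and not picked by a cut on these values, but earlier results of these data were known. Smooth muscle cells contract when myosin light chain kinase phosphorylates the light chains of myosin, which then pulls on actin filaments wrapped by tropomyosin. Calponin and transgelin bind these filaments, and many genes of the apparatus are switched on by serum response factor with its partner myocardin at a promoter element called the CArG box. In the embryo the same smooth muscle actin and transgelin are also made for a time by early heart muscle cells, and in later life by activated fibroblasts, so single genes of the list do not define a smooth muscle cell, whereas smooth muscle myosin (Myh11) is the most restricted of them.

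All cells were male mouse cells of the cross C57BL/6 x CAST/EiJ and had no engineered allele. The first culture was mESC, embryonic stem cells kept in 2i medium. The second was CPCC, a mixed cardiac precursor culture made from those stem cells through embryoid bodies and then passaged in an enrichment medium, and the third was CB, floating cardiac bodies that were picked because they were beating. The stem cells came from several blastocysts, but no column said which clone a cell came from, and each culture was 1 sample, so no difference below has a replicate check and none was tested. There were 215 mESC, 175 CPCC and 232 CB cells, each captured in its own chamber of a Fluidigm C1 chip, and no column name was shared between the tables (0 for each pair).

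Median depth per cell was between 1397869 and 1528316 counts in the 3 cultures, and 12 mESC, 6 CPCC and 13 CB cells had fewer than 100000. The median number of genes detected was 9532, 9252 and 6661 in mESC, CPCC and CB, and over the CB pools median depth ran from 804581 to 1750784 counts. With each cell thinned to 430000 counts, which left out 18 CPCC and 22 CB cells, the share with Acta2 at 1 count was 70.7% in CPCC and 45.7% in CB, and each of the 10 genes kept its order between these cultures. Cells had been sequenced in 3 pools for mESC, 2 for CPCC and 3 for CB, numbered here within each culture. The CB pools differed in the cells they held: fibroblast markers summed to between 989 and 15075 CPM over the CB pools, and none of the 78 cells of pool 2 fell in the 2 collagen-led clusters, 1 and 3, or in the Krt19-bearing cluster 2. Values per pool are therefore given beside those of each culture.

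Promoter sequence from RefSeq (build GRCm38.p6, 250 bases before to 50 after the start) was found for 7 of the 10 genes, Acta2, Cnn1, Cnn2, Mylk, Synpo2, Tpm1 and Tpm2. Those of Acta2, Cnn2 and Tpm1 are shown because they hold CArG boxes, the element through which serum response factor acts, or runs of letters with 1 departure from it. The boxes are in capitals.
Acta2, chr19:34255324-34255623, minus strand: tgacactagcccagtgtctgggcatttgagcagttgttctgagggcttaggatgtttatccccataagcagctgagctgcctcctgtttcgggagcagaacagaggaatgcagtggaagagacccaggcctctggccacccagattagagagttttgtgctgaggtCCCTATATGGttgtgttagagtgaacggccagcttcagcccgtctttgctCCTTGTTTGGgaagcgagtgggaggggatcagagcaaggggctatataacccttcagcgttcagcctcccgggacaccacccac
Cnn2, chr10:79988350-79988649, plus strand: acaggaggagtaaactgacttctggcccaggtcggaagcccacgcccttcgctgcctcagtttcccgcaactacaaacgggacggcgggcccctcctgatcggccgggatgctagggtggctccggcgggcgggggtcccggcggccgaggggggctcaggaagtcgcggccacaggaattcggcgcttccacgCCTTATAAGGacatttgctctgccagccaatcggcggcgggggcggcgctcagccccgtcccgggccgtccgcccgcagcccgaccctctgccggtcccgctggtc
Tpm1, chr9:67049164-67049463, minus strand: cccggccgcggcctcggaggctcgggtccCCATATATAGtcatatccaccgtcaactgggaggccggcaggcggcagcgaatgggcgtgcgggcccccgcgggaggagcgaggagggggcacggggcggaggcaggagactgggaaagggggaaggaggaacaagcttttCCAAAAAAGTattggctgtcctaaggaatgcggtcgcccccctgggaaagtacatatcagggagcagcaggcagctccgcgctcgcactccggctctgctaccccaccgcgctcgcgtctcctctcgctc

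A CArG box with no departure stood only in the Cnn2 promoter, CCTTATAAGG at position -56 from the start, 1 of 7 windows against 1.63% of all 32851 promoters in the table. With at most 1 departure, 3 of the 7 held a match, against 21.1% of all promoters. Acta2 had 2 such runs, CCCTATATGG at -84 and CCTTGTTTGG at -34, and Tpm1 had CCATATATAG at -221 and CCAAAAAAGT at -80. CATTCC, the MCAT core that TEAD factors bind, was, like TATAAA, searched on both strands and occurred in the windows of Acta2, Mylk and Tpm1, against 14.7% of all promoters. TATAAA occurred in that of Synpo2 on the opposite strand, against 13.6%. None of these matches overlapped another. The Mylk window (RefSeq start) lay inside the longer gene of the annotation, and such matches describe letters only.

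The thin filament genes come first, because they held most of the counts. Acta2, smooth muscle alpha-actin (chr19:34241090-34255590, minus strand, annotation of GRCm38), was not listed in the mESC table, which lists a gene only where at least 1 cell reached 1 count. In CPCC it reached 4176 CPM, a scale on which the summed counts of each culture have the same total, and its pools held 2875 and 5394 CPM. In CB it was at 833 CPM, with 1813, 670 and 558 CPM in pools 1 to 3. Every CPCC pool was therefore above every CB pool, and the log2 ratio of CB over CPCC, formed as log2(CPM + 1), was -2.32, with a range of -3.27 to -0.66 over the 6 pairs of pools.

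Single cells showed that the level of this actin differed widely between cells. In CPCC 54 of 175 cells had 1000 CPM of Acta2 or more, 11 had 100 to 1000, 20 had 10 to 100, 46 had 1 to 10 and 44 had under 1. CB cells split more cleanly, with 37 of 232 at 1000 or more, 42 at 100 to 1000, only 4 at 10 to 100, 21 at 1 to 10 and 128 under 1. At 1 count or more, Acta2 was detected in 85.1% of CPCC cells (exact 95% interval 79.0 to 90.1%) and in 56.5% of CB cells (49.8 to 62.9%). The CPCC values were whole counts and the CB values estimated counts, and the part of this in the low values was not tested.

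Shares at 1 count contain low values that also occurred in cells of other types. In a CPCC cluster of 14 cells led by Spp1 and by the macrophage genes C1qb and C1qc, 12 cells (85.7%) had at least 1 count of Acta2, with a median of 19.3 CPM per cell and a median depth of 1971916 counts, against 8856 CPM and 1709394 counts in the Acta2-led cluster. The share in CPCC at 1 count was thus no higher than in that cluster. Shares at 10 CPM are given as well: 48.6% of CPCC cells (41.0 to 56.2%) and 35.8% of CB cells (29.6 to 42.3%). In the Spp1-led CPCC cluster 8 of 14 cells (57.1%) also reached 10 CPM, so the CPCC share was not above that cluster at this rule either, while 0 of the 14 reached 1000 CPM. In a CB cluster of 20 cells led by the endothelial genes Ramp2 and Kdr, 2 cells reached 10 CPM of Acta2 and 1 reached it for Tagln.

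Actg2, the gamma-actin of enteric smooth muscle (chr6:83512905-83536265, minus strand), was not listed in mESC either. It stood at 228 CPM in CPCC, at nearly one level in both pools (220 and 235 CPM). CB had 105 CPM, but its pools held 516, 2.43 and 21.0 CPM, so they lay on both sides of the CPCC values. The log2 ratio of CB over CPCC was -1.11 and ran from -6.10 to 1.23 over pool pairs.

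A single CB cell of pool 1 carried 69.3% of all Actg2 counts of that culture. It had 11314 CPM of Actg2, and without it CB stood at 32.2 CPM. With the top cell of each culture left out, the log2 ratio of Actg2 was -2.46. The same cell was the highest CB cell for Acta2 (18715 CPM), Tagln (8075 CPM) and Cnn1 (1715 CPM), holding 14.5%, 12.5% and 31.9% of their counts. It also had 5422 CPM of Tpm1, 1309 of Cnn2, 1160 of Tpm2, 241 of Myh11, 81.8 of Mylk and 32.2 of Synpo2, and so was a cell with all 10 genes at 10 CPM or more. Its Col1a2 level was 1123 CPM.

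Tpm1 was the member detected in most stem cells, followed by Cnn2. This tropomyosin gene, which gives striated, smooth and non-muscle isoforms by splicing that gene counts do not separate (chr9:67022590-67049406, minus strand), was at 86.6 CPM in mESC (85.2 to 88.6 over pools), 1591 CPM in CPCC (1538 and 1641) and 845 CPM in CB (1018, 734 and 873). It was detected in 91.2% of mESC, 97.1% of CPCC and 95.7% of CB cells. The cultures thus differed in the level of Tpm1 and hardly in its share of cells. Tpm2, the beta-tropomyosin of muscle and fibroblasts (chr4:43514711-43523765, minus strand), was at 1.33, 187 and 98.8 CPM in the same order and in 14.9%, 80.0% and 64.7% of cells. Both genes had a log2 ratio of -0.91 for CB over CPCC, and for both the pools of CB lay below those of CPCC.

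**Figure D1:**
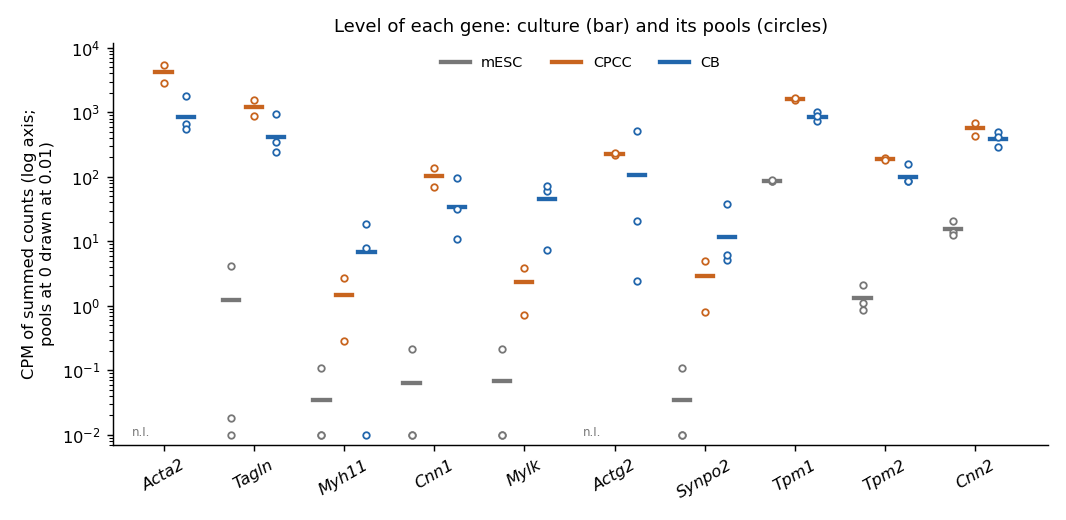
Level of the 10 genes in the 3 cultures, as CPM of summed counts on a log axis, with a bar for the culture, open circles for its pools (a pool at 0 is drawn at 0.01 CPM) and n.l. where the table does not list the gene. Acta2 stands at 4176 CPM in CPCC and 833 CPM in CB, Mylk at 2.38 and 44.7 CPM, and the Actg2 pools of CB spread from 2.43 to 516 CPM.

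Myh11 and Mylk, of the myosin side, were lower in CPCC than in CB. Myh11, smooth muscle myosin heavy chain (chr16:14194535-14291372, minus strand), had 12 counts in 1 of 215 mESC cells (0.034 CPM), reached 1.45 CPM in CPCC and was at 6.78 CPM in CB. Pools of CPCC held 2.7 and 0.28 CPM, and those of CB 18.3, 0 and 8.0 CPM. In CPCC 1 cell gave 88.8% of its counts, and 4 of 175 cells (2.29%, interval 0.63 to 5.75%) had any. That cell also had 15332 CPM of Acta2 and 3052 CPM of Actg2, with Col1a2 at 0. In CB 17 of 232 cells (7.33%, 4.33 to 11.5%) had Myh11, of which 12 reached 10 CPM. None of the 78 cells of CB pool 2 had a count, which allows a share of cells with a count of up to 3.85% there (3 of 78, for counting error only). The log2 ratio of CB over CPCC was 1.67 and ran from -1.89 to 3.92, so its direction was not the same for every pool pair.

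Mylk, the light chain kinase that starts contraction (chr16:34745210-35002420, plus strand), showed the largest difference of the list in favour of CB. It was at 0.068 CPM in mESC, 2.38 CPM in CPCC (pools 0.73 and 3.92) and 44.7 CPM in CB (pools 60.4, 7.37 and 72.1). All CB pools were above both CPCC pools, with a log2 ratio of 3.76 and a range of 0.77 to 5.40. Cells with Mylk made up 4.57% of CPCC (1.99 to 8.81%) and 33.6% of CB (27.6 to 40.1%). In CB the highest cell held 8.38% of its counts. In CPCC 1 cell held 69.7% of them, without which CPCC stood at 0.72 CPM, and with the top cell of each culture left out the log2 ratio was 4.61. Mylk also yields a non-muscle kinase from the same gene, which these counts do not separate. The antisense genes that overlap its exons were at 0.92 CPM or less in CB.

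Synpo2, an actin-bundling protein of the Z-disc and of dense bodies (chr3:123076519-123236149, minus strand), followed at a lower level with 0.034, 2.91 and 11.7 CPM in mESC, CPCC and CB. Its CB pools (38.3, 5.21 and 6.17 CPM) lay above those of CPCC (0.79 and 4.90 CPM), although the nearest pair was only 0.07 apart in log2 ratio. It was found in 14 of 175 CPCC cells and 33 of 232 CB cells (14.2%), and the exact intervals of these shares overlapped (4.44 to 13.1% in CPCC, 9.998 to 19.4% in CB).

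Tagln, transgelin or SM22, one of the first genes of smooth muscle differentiation (chr9:45929619-45936058, minus strand), resembled Acta2. It had 1.21 CPM in mESC, where 4 of 215 cells had any count, 1214 CPM in CPCC (pools 877 and 1528) and 417 CPM in CB (pools 958, 240 and 345). Because pool 1 of CB was above pool 1 of CPCC, the groups of pools overlapped, and the log2 ratio of -1.54 ran from -2.67 to 0.13. At 10 CPM it was present in 64.0% of CPCC cells (56.4 to 71.1%) and 38.4% of CB cells (32.1 to 45.0%). An antisense gene, Gm48529, lies on the other strand of Tagln, and 33.2% of the 100-base windows of the longest Tagln transcript were the reverse complement of transcripts of other genes. The use of strand in counting was not stated, so reads of the 2 genes cannot be told apart where they overlap. Gm48529 itself had 45.9 CPM in CPCC, against 19.6 CPM in CB.

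The calponins split by their known breadth. Cnn1, the smooth muscle calponin (chr9:22099216-22109630, plus strand), was at 0.063, 104 and 34.6 CPM in mESC, CPCC and CB, with CPCC pools of 70.2 and 136 CPM and CB pools of 95.1, 31.8 and 10.9 CPM. It was detected in 54.3% of CPCC cells (46.6 to 61.8%) and 15.1% of CB cells (10.7 to 20.4%), the largest gap in shares between these cultures among the 10 genes. Cnn2, the calponin of many non-muscle cells (chr10:79988584-79996062, plus strand), was at 15.3, 565 and 383 CPM and in 47.4%, 89.7% and 81.0% of cells. Its log2 ratio of CB over CPCC was -0.56, within 2-fold, and the pools overlapped.

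**Figure D2:**
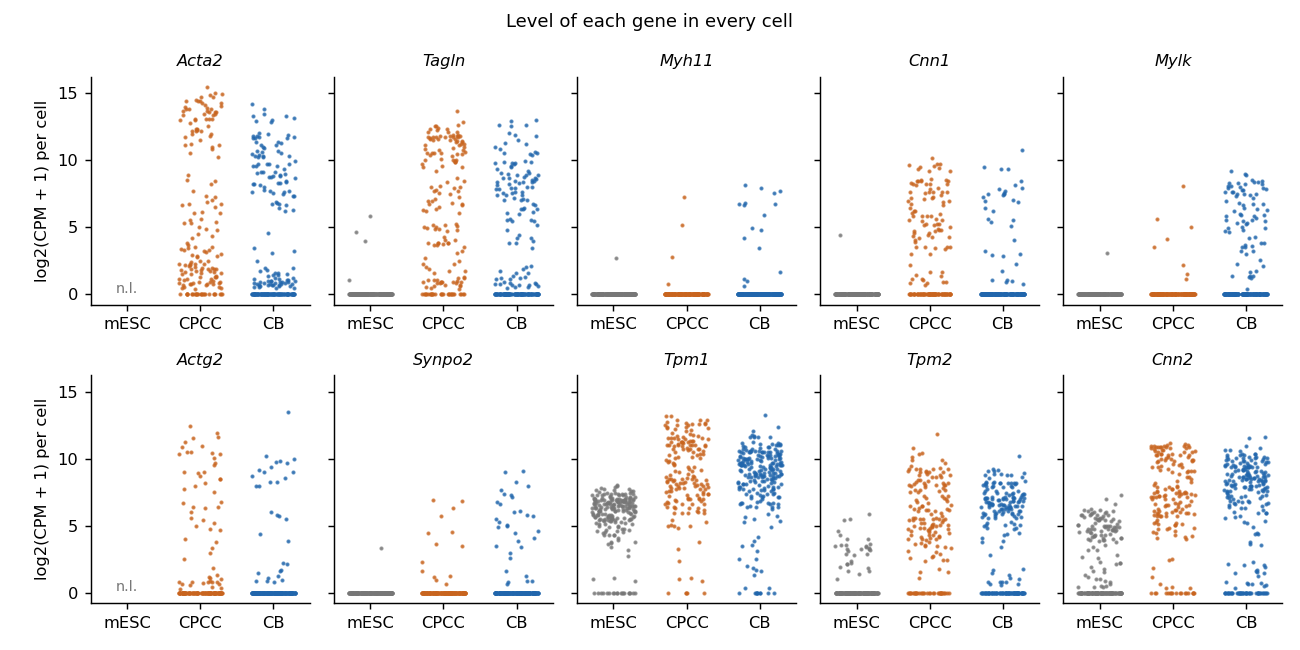
Level of each gene in every cell as log2(CPM + 1), 1 panel per gene and 1 point per cell, with points spread sideways at random within a culture and n.l. where a gene is not listed. Acta2 in CB has only 4 cells between 10 and 100 CPM, Tagln in CPCC is spread over the whole range, Tpm1 lies in most cells of all cultures, and Myh11 is seen in 4 CPCC and 17 CB cells.

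Compared across the list, both differentiated cultures were above the stem cells. Of the 8 members listed in both tables, 8 were at least 2-fold higher in CPCC than in mESC and 0 lower, while 17.8% of the 11849 genes tested were 2-fold higher and 7.94% lower. A gene was tested when it was listed in both tables and reached 5 CPM in 1 of them, which 5 of the 8 members did. For CB over mESC the count was again 8 of 8 higher and 0 lower, against 31.4% and 15.2% of 12619 genes. These comparisons share the mESC sample, in which Myh11, Cnn1, Mylk and Synpo2 each rested on 1 cell. The list was chosen with earlier results of these data known, so the counts are a description and no test. The CPCC counts of rare members rested on single pools: Myh11 was at 0.31 on the log2 scale without CPCC pool 1, and Mylk and Synpo2 were at 0.70 and 0.79 without CPCC pool 2. Without the top cell of each gene Myh11 was at 0.22 and Mylk at 0.78. The median log2 ratio of the members was 4.65 in CPCC and 4.81 in CB, and that of all genes tested was 0.00 and 0.27.

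Between the differentiated cultures the list divided. Of 10 members, 4 were at least 2-fold lower in CB than in CPCC (Acta2, Tagln, Cnn1 and Actg2), against 10.1% of the 12963 genes tested. The 3 members that were at least 2-fold higher were Mylk, Myh11 and Synpo2, against 20.4%. Tpm1, Tpm2 and Cnn2 stayed within 2-fold, although scaling by TMM factors took Tpm1 and Tpm2 to -1.11 on the log2 scale. With any 1 pool left out, Acta2, Tagln, Mylk and Myh11 stayed at least 2-fold apart. Actg2 did not, at -0.41 without CB pool 2 and -0.44 without CB pool 3, nor did Cnn1 without CB pool 3 (-0.99) or Synpo2 without CB pool 1 (0.78). The median of the 10 was -0.91, and the median of all genes tested was 0.18. Only for Acta2, Mylk, Synpo2, Tpm1 and Tpm2 were all pools of one culture on one side of the other, and for the remaining 5 genes at least 1 pair of pools had the opposite sign.

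Levels of different genes can be compared only per length. Per kilobase of exon, CPCC ran in the order Acta2 (1901 CPM per kb), Tagln (610), Tpm1 (245), Cnn2 (230), Actg2 (146), Tpm2 (64.1) and Cnn1 (38.1), followed by Synpo2, Mylk and Myh11 at 0.22, 0.21 and 0.19. Pools separated all neighbours in this order except Tpm1 from Cnn2 and the last 3 from each other. CB had a flatter order, from Acta2 (379 CPM per kb) and Tagln (210) to Mylk (3.96), Synpo2 (0.90) and Myh11 (0.89), and there the pools of all 9 neighbouring pairs overlapped.

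Relatives of each member put these levels in scale. Acta2 gave 30.9% of the summed level per kb of 6 actin genes in CPCC and 13.4% in CB, where the cytoplasmic actins Actb and Actg1 gave 39.1% and 39.6%. Actg2 gave 2.38% in both, and in CB 69.3% of its counts were those of the 1 cell described above. Tagln gave 56.0% and 54.2% of the transgelin level beside Tagln2, and 1.07% in mESC. Myh11 gave 1.32% in CPCC, where 1 cell held 88.8% of its counts, and 4.46% in CB of the level shared with the non-muscle myosins Myh9 and Myh10. Among calponins, Cnn3 gave 98.3% in mESC, 56.9% in CPCC and 58.8% in CB, with Cnn2 at 37.0% and 38.1% in the last 2.

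Of 13 other contractile genes of smooth muscle, 10 were at least 2-fold higher in CPCC and 11 in CB than in mESC, against 17.8% and 31.4% of all genes tested, with 0 at least 2-fold lower in either. Smtn, Ppp1r14a and Ppp1r12b were within 2-fold in CPCC, at log2 ratios of 0.87, 0.38 and -0.21. Of these, Ppp1r14a and Ppp1r12b were under 5 CPM in both mESC and CPCC and so outside the genes tested. The same held for Kcnmb1 and Itga8, which are counted among the 10. Myl9, the regulatory light chain that Mylk phosphorylates, went from 1.86 CPM in mESC to 368 in CPCC and 297 in CB. Cald1, caldesmon, was at 35.5, 535 and 469 CPM, and the filament cross-linker Flna at 53.7, 250 and 236 CPM. Between CB and CPCC 3 of the 13 were at least 2-fold higher, near the 20.4% of all genes tested. They were desmin (Des, 5.38 against 28.8 CPM from CPCC to CB), the phosphatase subunit Ppp1r12b (1.98 against 16.5 CPM) and integrin alpha 8 (Itga8, 1.89 against 35.4 CPM). Csrp1 was the 1 that was lower, at 44.2 CPM in CPCC and 19.1 CPM in CB, and the other 9 were within 2-fold.

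The transcriptional regulators of the programme, 7 genes, were followed as well. Tead1, a TEAD factor, was at 43.3, 59.7 and 85.0 CPM in mESC, CPCC and CB, and its log2 ratio of CB over CPCC was 0.50. Srf, serum response factor, was at 7.32, 11.9 and 9.32 CPM in the same order. Myocd, myocardin, was not listed in mESC and stood at 0.59 CPM in CPCC, against 3.71 CPM in CB, with any count in 4.0% and 5.6% of cells. Of the 6 regulators listed in mESC, 0 were 2-fold higher in CPCC and 1 was 2-fold lower, against 17.8% and 7.94% of all genes tested. The lower one was Klf4, a factor known to repress the contractile genes (56.8 to 22.1 CPM). In CB 3 of 7 were at least 2-fold above CPCC and 0 were lower, against 20.4% and 10.1% of all genes tested. The 3 were Myocd, Mrtfb (11.6 to 28.7 CPM) and Klf4 (22.1 to 129 CPM). Myocd was too low in both cultures to be among the genes tested.

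Of 11 non-muscle relatives, 8 were at least 2-fold above mESC in CPCC, against 17.8% of all genes tested, and 4 in CB, near the 31.4% of all genes there, with 0 lower. Cnn3 was at 1091, 1071 and 730 CPM and Myl12b at 445, 335 and 335 CPM in mESC, CPCC and CB. Tagln2 was at 118, 997 and 370 CPM and Tpm4 at 207, 1247 and 1017 CPM. Between CB and CPCC 2 were at least 2-fold lower, Tagln2 and Actb, cytoplasmic beta-actin, and 0 higher. Of all genes tested there, 10.1% were lower and 20.4% higher.

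Markers of other cell types also differed between the cultures and pools, and their part in the members' values was not tested. Of 13 striated muscle and cardiomyocyte genes, 11 were at least 2-fold higher in CB than in CPCC and 2 lower. Of all genes tested, 20.4% were higher and 10.1% lower. The summed level of the 13 ran from 24.9 to 1436 CPM over the CB pools and from 283 to 442 CPM over those of CPCC. The 2 lower ones were Acta1, skeletal actin (185 CPM in CPCC, 35.9 in CB), and Tnnt2, cardiac troponin T (84.9 and 40.4 CPM). Mural cell markers, those of pericytes and vessel walls, summed to 29.9 to 203 CPM in CPCC pools and 146 to 241 CPM in CB pools. Of the 5 listed in both cultures, 3 were at least 2-fold higher in CB and 1 was lower, against the same shares of all genes. The lower one was Mcam (96.5 against 45.6 CPM from CPCC to CB). Cspg4 was at 6.74 and 5.46 CPM, Rgs5 at 1.47 and 24.7 CPM, and Pdgfrb at 9.54 and 76.8 CPM, while Kcnj8 and Abcc9, which mark pericytes, were listed only in CB.

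Fibroblast genes were higher in the CB culture as a whole, but not in each of its pools. Of 10 listed, 9 were at least 2-fold higher in CB than in CPCC and 0 lower, against 20.4% and 10.1% of all genes tested. The summed level of the 10 was 308 to 2284 CPM over the CPCC pools and 989 to 15075 CPM over the CB pools. The remaining gene, Fn1 (fibronectin), was at 809 CPM in CPCC and at 543 in CB. Col1a2, the alpha-2 chain of type I collagen (chr6:4504814-4541544, plus strand), was at 0.18 CPM in mESC, 140 CPM in CPCC (pools 36.9 and 237) and 1972 CPM in CB (pools 2490, 57.1 and 3505). Its partner chain Col1a1 was at 1.11, 139 and 1000 CPM. Pool 2 of CB lay below pool 2 of CPCC for both chains (30.2 against 235 CPM for Col1a1), so the pools overlapped, and the log2 ratio of CB over CPCC ran from -2.04 to 6.53 for Col1a2 and from -2.92 to 5.60 for Col1a1.

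Epithelial and mesothelial genes summed to 485 to 1729 CPM over CPCC pools and 786 to 2880 CPM over CB pools, and 4 of 9 were at least 2-fold higher in CB. Of all genes tested, 20.4% were higher and 10.1% lower in CB, and these shares hold for the lists below too. Endothelial genes summed to 77.4 to 269 CPM and 102 to 1465 CPM, with 7 of 10 at least 2-fold higher in CB. Macrophage genes summed to 16.5 to 2808 CPM in CPCC pools and 4.93 to 232 CPM in CB pools, with 5 of 5 at least 2-fold lower in CB. The pluripotency genes summed to 1004 to 5710 CPM and 101 to 137 CPM, with 5 of the 7 listed in both at least 2-fold lower and with Pou5f1, Dppa5a and Dppa4 not listed in CB.

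Co-detection with Col1a2 asks whether the contractile genes and collagen were found in the same cells. It was measured with phi, the correlation of 2 yes-or-no calls over cells, in which 0 means that the calls are unrelated. In CPCC at 10 CPM, 42 of 175 cells had Col1a2, and 41 of these 42 had Acta2 (97.6%, interval 87.4 to 99.9%). In the opposite direction 41 of the 85 Acta2 cells had Col1a2 (48.2%, 37.3 to 59.3%), against 1.11% of cells without Acta2. Of those 41 cells, 40 were among the 54 with 1000 CPM or more of Acta2, so Acta2 cells without 10 CPM of Col1a2 were mostly those with lower Acta2. Of the 85 Acta2 cells, 8 were in the Spp1-led cluster and 8 in cluster 4. The 10 cells of cluster 4 had mt-Co1 and mt-Rnr2 among their leading genes and a median depth of 76816.5 counts. At that depth 1 count is more than 10 CPM.

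Phi with Col1a2 at 10 CPM was 0.73 for Actg2, 0.55 for Acta2, 0.52 for Cnn1, 0.39 for Tagln, 0.33 for Tpm2 and 0.31 for Mylk in CPCC. It was 0.20 or less for Synpo2, Cnn2, Tpm1 and Myh11. Of the 6 members detected in 10 to 90% of cells at that rule, 5 reached 0.3, where 11.1% of 10213 genes in the same range did. At the rule of 1 count, 2 of 6 members reached 0.3 (Actg2 at 0.43 and Cnn1 at 0.36), against 8.14% of 13122 genes, and Acta2 was at 0.25. Within pools, phi of Acta2 at 10 CPM was 0.60 and 0.50, and that of Actg2 0.63 and 0.80.

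In CB phi was lower than in CPCC under both rules for Actg2 and Cnn1. It was higher under both for Cnn2 and for Myh11, which few cells had. For Acta2, Tagln, Tpm1, Tpm2, Mylk and Synpo2 the direction turned with the rule. At 10 CPM Acta2 was lower and Mylk higher in CB. At 1 count Acta2 was at 0.25 in CPCC and 0.29 in CB, and Mylk at 0.26 and 0.20. No difference was tested. At 10 CPM 134 of 232 cells had Col1a2, and 67 of them had Acta2. Conversely 67 of 83 Acta2 cells (80.7%) had Col1a2, as did 45.0% of the cells without Acta2. Phi was 0.37 for Mylk, 0.37 for Tagln, 0.35 for Acta2 and 0.32 for Cnn2, and lower for the others, down to 0.06 for Tpm1. These 4 of the 7 members in range reached 0.3, where 2.42% of 10305 genes did. At 1 count 0 of 8 members reached it, with 0.29 for Acta2 as the highest, and 1.12% of 12863 genes did.

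These CB values differed between pools. At 10 CPM Mylk had a phi of 0.51 within pool 3, 0.27 within pool 1 and -0.02 within pool 2, where only 6 cells had it. At 1 count these were -0.13, 0.19 and -0.07 in the same order. Acta2 was steadier at 10 CPM, with 0.37, 0.33 and 0.26 in pools 1, 2 and 3, and had 0.27, 0.28 and 0.12 at 1 count. In pool 3, 84 of 85 cells had Col1a2 at 1 count, so nearly no cell without it was left to compare. In mESC just 1 cell had Col1a2, so nothing could be read there.

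**Figure D3:**
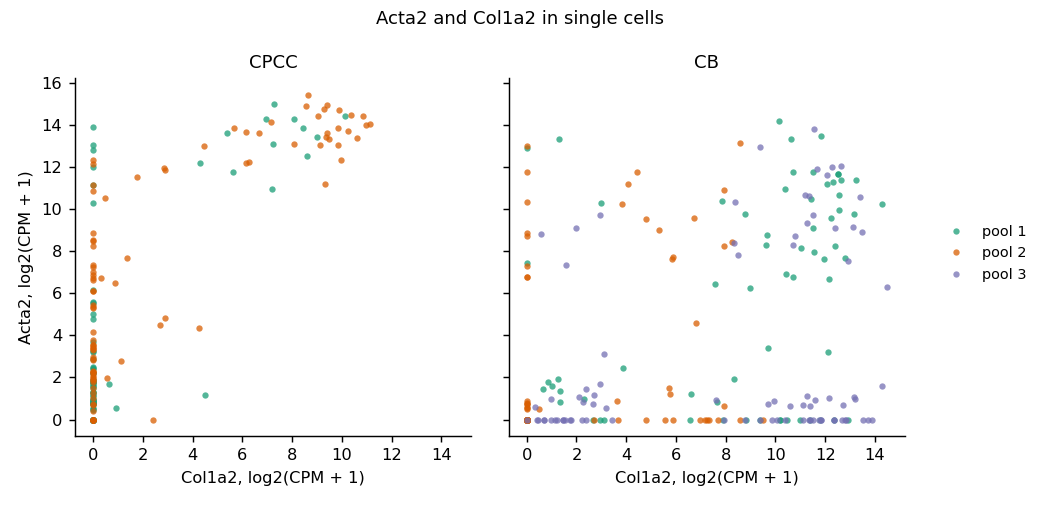
Acta2 against Col1a2 in single cells as log2(CPM + 1), with CPCC on the left, CB on the right and points coloured by pool. In CPCC, 41 of the 42 cells with 10 CPM of Col1a2 also have 10 CPM of Acta2, while in CB only 67 of 134 do and the others lie along the lower edge.

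As levels over cells with at least 100000 counts (169 CPCC and 219 CB cells), Acta2 and Col1a2 had a Pearson correlation of 0.80 in CPCC and 0.35 in CB. With pool means removed these were 0.78 and 0.32. The points share their library depth and their pools, so the values describe these cells and carry no test.

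Cells rich in Acta2 differed in what else they held. All 54 CPCC cells with 1000 CPM or more had Tagln at 10 CPM, 48 had Cnn1, 40 had Col1a2, 37 had Actg2, 5 had Mylk, 5 had Synpo2 and 2 had Myh11. Among the other 121 CPCC cells, 58 had Tagln, 30 Cnn1 and 2 Actg2. Of the 54 cells, 16 had the cardiac gene Tnnt2 at 10 CPM and 8 had Actc1, against 4 and 2 of the other 121. The pluripotency gene Dppa5a was in 9 of the 54 and in 96 of the 121.

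The 37 CB cells with 1000 CPM of Acta2 held Mylk, Synpo2 and Myh11 more often than those of CPCC, and Tagln, Cnn1 and Actg2 less often, differences that were not tested. Among them 33 had Tagln, 21 Cnn1, 21 Mylk, 17 Actg2, 13 Synpo2 and 9 Myh11, and of the other 195 cells 56, 3, 43, 5, 11 and 3 had these genes. Tagln and Mylk were thus common outside the Acta2-rich cells as well, while Cnn1, Actg2 and Myh11 were seldom seen there. All 12 CB cells with 10 CPM of Myh11 had Mylk, 12 had Col1a1, 11 had Tagln and 10 had Acta2. Of the striated muscle genes, Tnnt2 was in 2 of them, Acta1 in 2 and Actc1 in 0, against 25, 8 and 17 of the other 220 cells.

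CB pool 2 differed in the company of Acta2. Its 8 Acta2-rich cells had Actc1, cardiac actin, in 6 cases, Tnnt2 in 3, Col1a2 in 5 and Mylk in 0. In pools 1 and 3 the counts were 1 and 0 for Actc1, 16 of 19 and 10 of 10 for Col1a2, 3 and 0 for Tnnt2, and 13 of 19 and 8 of 10 for Mylk. Among the other cells of pool 2, 23 of 70 had Col1a2 and 8 had Actc1. Acta2-rich cells with Col1a2 were thus found in all 3 pools, those with Mylk in pools 1 and 3, and 6 of the 7 with Actc1 in pool 2.

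The 10 genes were more tightly tied to each other in CPCC than the median shows. Over 45 pairs the median correlation of log2(CPM + 1) was 0.30 in CPCC and 0.31 in CB, but 20 pairs reached 0.5 in CPCC and 5 in CB. Acta2 with Tagln was the highest pair in both, at 0.79 and 0.73. In CPCC the 7 abundant genes Acta2, Tagln, Cnn1, Actg2, Tpm1, Tpm2 and Cnn2 carried the strong pairs, and Myh11, Mylk and Synpo2, which few cells had, did not. In CB Myh11 with Actg2 came next at 0.58. At 10 CPM 74 CPCC and 69 CB cells held 5 or more members, and 35 and 24 held 7 or more, while 0 mESC cells held 5.

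**Figure D4:**
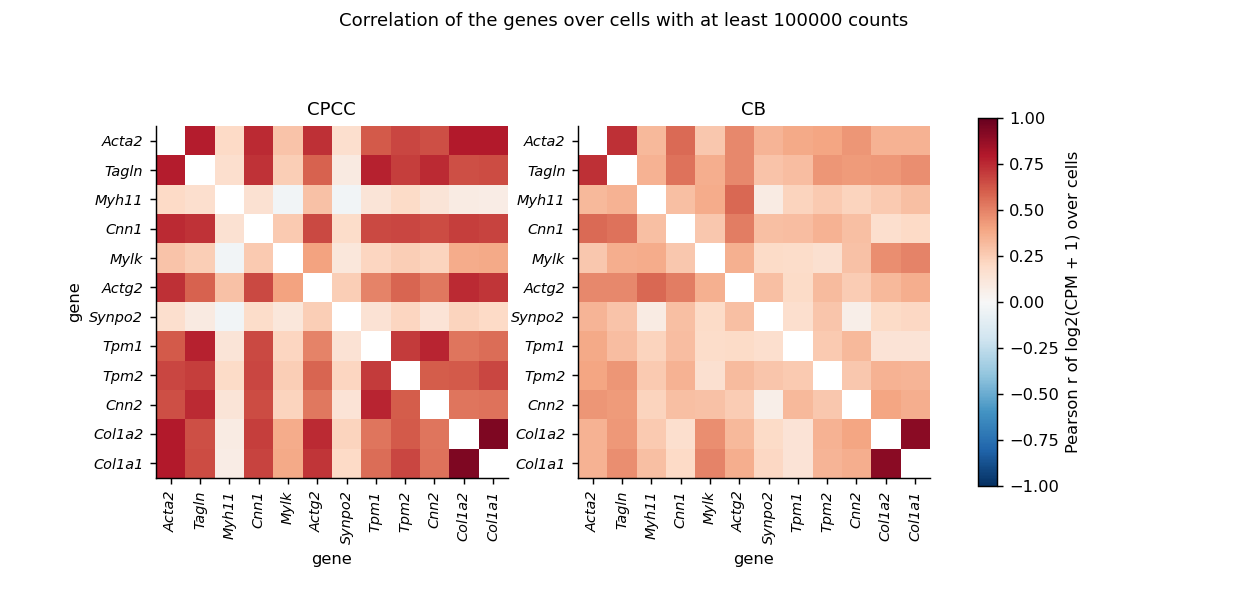
Pearson correlation of log2(CPM + 1) between the 10 genes, Col1a2 and Col1a1 over cells with at least 100000 counts, in CPCC (169 cells, left) and CB (219 cells, right), red for positive and blue for negative values. Acta2 with Tagln is 0.79 and 0.73, and Acta2 with Col1a2 is 0.80 in CPCC and 0.35 in CB.

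Genes outside the list whose pattern over cells was most like the mean of the members were ranked among genes detected in at least 25% of cells. In CPCC they were Gm48529 (Pearson 0.92), which lies antisense to Tagln and may share its reads, then Tgfb1i1 (0.85), which encodes the focal adhesion protein Hic-5, Prrx2 (0.85), a mesenchymal homeobox gene, Prss23 (0.84) and Cav1 (0.83), caveolin. The same 5 genes led for Acta2 alone, with 0.83 to 0.85. Col1a2 ranked 18 of 12148 genes for the mean and 13 for Acta2. In CB they were Gm48529 (0.79), Myl9 (0.72), Col12a1 (0.59), the myosin light chain Myl6 (0.56) and Tgfb1i1 (0.52), among 9919 genes, and for Acta2 alone Prss23 (0.46) took the place of the last. With pool means removed, Tgfb1i1 fell to rank 11 for the mean (0.48) and Prss23 to rank 10 for Acta2 (0.42) in CB. Gm48529, Myl9, Col12a1 and Myl6 kept ranks 1 to 4. Col1a2 ranked 11 for the mean and 42 for Acta2 in CB, and 15 and 47 with pool means removed.

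Clusters of each culture, made from all variable genes and so including these, only locate the counts. In CPCC, cluster 1 (55 cells, led by Acta2, Sparc and Tagln) held 91.6% of all Acta2 counts, 89.9% of Tagln, 92.4% of Cnn1, 99.8% of Mylk and 99.6% of Col1a2. Its Acta2 level was 10323 CPM, against 756 CPM in the 66 cells of cluster 0, which was led by the pluripotency gene Dppa5a. The cluster 0 value came from few cells, with a median of 1.05 CPM per cell and 3 cells at 1000 CPM or more. Cluster 0 held 16.1% of the Actg2 counts and 88.8% of those of Myh11, of which the 1 cell with most Myh11 gave 11.4% and 88.8%. Mylk was at 0 in clusters 0, 3 and 4.

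CB had no such single home. Cluster 3 (38 cells, led by Col3a1, Col1a2 and Dcn, with Acta2 and Tagln among its first 10 genes) held 94.3% of Actg2, 69.0% of Synpo2, 65.9% of Myh11, 49.2% of Acta2 and 44.7% of Tagln. The 1 cell described above gave 69.3% of all CB counts of Actg2, 22.8% of Myh11, 14.5% of Acta2 and 12.45% of Tagln. At 10 CPM, 12 of the 38 cells had Actg2. Cluster 1 (44 cells, led by Col1a2, Col3a1 and Mfap4) held 66.1% of Col1a2 and 56.6% of Mylk, yet 11.5% of Acta2. Cluster 0 (87 cells, led by the dividing-cell genes Stmn1 and Hmgb2) held 33.3% of Acta2, 36.2% of Cnn1, 75.4% of Tnnt2 and 96.1% of Actc1. In the endothelial-led cluster 4 (20 cells) Myh11, Cnn1, Actg2 and Synpo2 were at 0, Acta2 at 14.3 CPM and Cnn2 at 351 CPM.

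**Figure D5:**
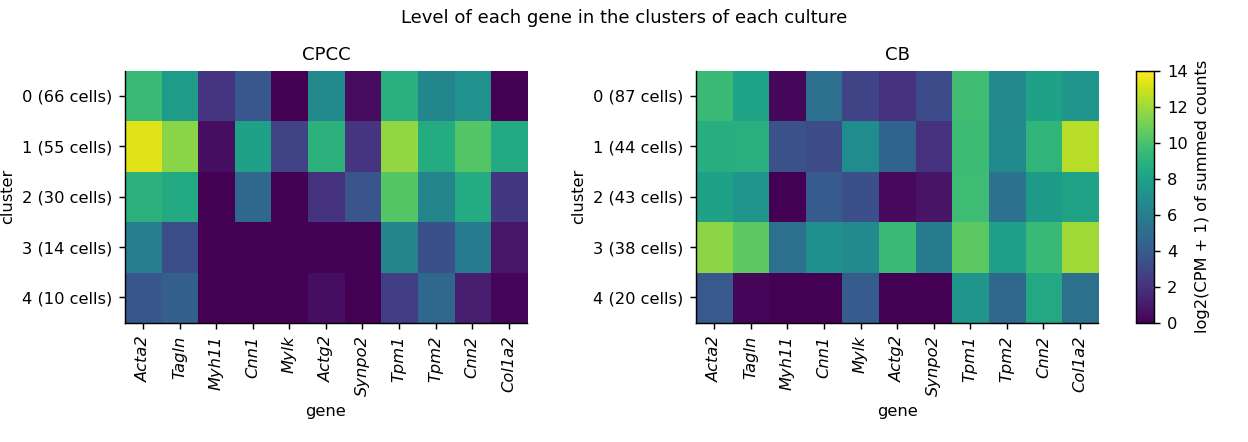
Level of the 10 genes and Col1a2 in the clusters of CPCC (left) and CB (right), as log2(CPM + 1) of the counts summed over the cells of a cluster, from dark (0) to yellow (14). CPCC cluster 1 is highest for 8 of the 10 genes with Acta2 at 10323 CPM. In CB cluster 3 holds 94.3% of Actg2, where 1 cell has 69.3% of all counts of that gene, and cluster 1 holds 56.6% of Mylk.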

How the data were processed

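Cells were captured on the Fluidigm C1 system and libraries were made from polyadenylated RNA without molecular identifiers. The authors aligned reads to mouse genome mm10 (GRCm38) with STAR 2.7 and deposited 1 gene table per culture. The values deposited for CPCC were whole counts, and those deposited for mESC and CB were estimated counts, of which 26.4% and 27.4% of values above 0 were not whole (tolerance 0.001). The counting model and its use of strand were not given in the sources used here. Of the CPCC table, 208 rows without a gene and 23 symbols turned into dates (0.139% of counts) and 2 columns of no sample were left out.

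Counts were summed over cells to CPM, and ratios were log2 of (CPM + 1), which understates changes of low genes. Called meant at least 2-fold. A gene was detected at 1 count, with 10 CPM beside it. Intervals (95%, Clopper-Pearson) and floors cover counting error only. With 1 sample per group no test was made. The values were recomputed with other scalings, pseudocounts, cell filters, thinning and single pools. Clusters came from Seurat 5.3.0 (resolution 0.6, 10 components). No doublet caller was run, since the study inspected the chambers by microscope. Gene positions and exon lengths came from GENCODE on GRCm38. No member shared a 100-base window on its own strand with another gene (0 for each). The analysis was tested on simulated data, in Python 3.11.15.

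Members, marker lists and rules were chosen with earlier results of these data known. Named were all members, Col1a2, Col1a1, the 5 genes most like the members or Acta2 per culture, and list genes at least 2-fold apart or bearing on a result. The allowance of 1 departure in CArG boxes, the top cells and the tallies of Acta2-rich cells were chosen after values were seen.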

Additional observations from a re-analysis of the deposited data

How the results depend on the processing

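No paired analysis was possible because each culture was 1 sample and pools carry no shared number. Leaving out a replicate was not possible for the same reason. The 8 members at least 2-fold higher in CPCC than in mESC became 5 with a pseudocount of 10 CPM and 5 when members had to reach 5 CPM in 1 sample. The 3 members higher in CB than in CPCC became 1 with a pseudocount of 10 CPM, and over pairs of pools the lowest count was 0. The 4 lower members ranged from 0 to 7 over pairs of pools. Over those pairs the log2 ratio of CB over CPCC changed sign for Tagln (up to 0.13), Cnn1 (up to 0.43), Actg2 (up to 1.23), Cnn2 (up to 0.21) and Myh11 (down to -1.89). That of Myh11 in CB over mESC reached -0.15. The cause was not tested. Leaving out each pool in turn was chosen after seeing the data: the 4 members lower in CB than in CPCC became 5, 3 and 2 without CB pools 1, 2 and 3, the 3 higher became 2 without CB pool 1, the 8 higher in CPCC than in mESC became 7 and 6 without CPCC pools 1 and 2, and the 8 higher in CB than in mESC stayed 8. Scaling by TMM or DESeq2 factors moved the median log2 ratio of all genes from 0.27 to 0.08 or 0.05 for CB over mESC, and from 0.18 to -0.02 or -0.01 for CB over CPCC, and raised the members at least 2-fold lower in CB than in CPCC from 4 to 6. The median phi with Col1a2 at 1 count, 0.24 in CPCC and 0.16 in CB, became 0.58 and 0.34 as a Spearman correlation of levels. With Actb as partner, phi was undefined in CPCC, where every cell had Actb.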
